A study of Mus musculus with 14 samples.

Results

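A set of 6 genes of the upper hair follicle was followed through the conversion of epidermal stem cells by SOX9. They are *Krt79*, *Cst6*, *Defb6*, *Lrig1*, *Plet1* and *Gata6*, chosen by symbol as genes of the infundibulum and its surroundings, and they are 6 of the 54332 genes in the time-course table. The study switched on SOX9, the transcription factor that specifies hair follicle fate in the embryo, in epidermal stem cells (EpdSCs) of adult mouse back skin and sequenced their RNA at 5 timepoints with 2 biological replicates each, D0, W1, W2, W6 and W12. All 10 libraries came from CD1 mice carrying K14rtTA; TRE-myc-Sox9, in which the keratin 14 promoter drives a doxycycline (DOX)-dependent activator in the skin epithelium and this activator drives MYC-tagged SOX9. The mice are labelled male, were given DOX at P21 and then fed on it, and were P21 at D0, P28 at W1, P35 at W2 and P63 at W6. The W12 libraries are labelled grafted, and by the study's methods the skin came from newborn pups, healed on immunodeficient Nude female hosts and was then induced, so that at W12 the graft and the length of induction cannot be told apart. Age rises with induction at the other timepoints, and no libraries of age-matched uninduced mice were analysed here. Cells were sorted as negative for CD31, CD45, CD117, CD140a and CD34 and high for CD49f and Ly6A, a gate meant to remove endothelial, immune, melanocytic and fibroblastic cells and CD34-positive bulge cells.

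The infundibulum is the funnel that joins the hair follicle to the skin surface, and below it lie the isthmus and the junctional zone, from which the sebaceous duct leaves. These compartments are kept by their own stem cells, distinct from those of the bulge and of the interfollicular epidermis between follicles, and the 6 genes mark overlapping stretches of this region. Cells of the infundibulum also carry Ly6A and lack CD34, so the gate does not part them from EpdSCs. Whether cells of the isthmus and junctional zone pass the gate was not measured. In bulk RNA of sorted cells a higher level can mean more cells of a type or more RNA per cell, which cannot be told apart.

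The positions given here are those of GENCODE M21 on GRCm38. *Krt79* (ENSMUSG00000061397.8) spans chr15:101929332-101940324 on the minus strand and *Cst6* (ENSMUSG00000024846.6) chr19:5344705-5349574 on the minus strand. *Defb6* (ENSMUSG00000050756.3) spans chr8:19225478-19228209 on the plus strand and *Lrig1* (ENSMUSG00000030029.14) chr6:94604529-94700158 on the minus strand. *Plet1* (ENSMUSG00000032068.14) spans chr9:50494525-50505482 on the plus strand. RefSeq promoter windows on GRCm38.p6 were found for 4 of the 6 genes (*Krt79*, *Defb6*, *Lrig1* and *Plet1*). The 250 bases before the start site are shown for the 3 below because they contrast a pair of genes that rose early with *Plet1*, which did not. Capitals mark the letters AGATAA, which resemble a GATA factor motif, and TATAAA, the motif of a TATA box. Only these exact letters are marked, so the similar tatataa near the end of the *Defb6* window stays in lower case.
Krt79 (chr15:101940325-101940574, minus strand): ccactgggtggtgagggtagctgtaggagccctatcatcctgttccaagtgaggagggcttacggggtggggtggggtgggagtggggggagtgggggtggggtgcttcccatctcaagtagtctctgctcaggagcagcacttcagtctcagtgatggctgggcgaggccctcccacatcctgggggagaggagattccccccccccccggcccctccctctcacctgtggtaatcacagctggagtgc
Defb6 (chr8:19225228-19225477, plus strand): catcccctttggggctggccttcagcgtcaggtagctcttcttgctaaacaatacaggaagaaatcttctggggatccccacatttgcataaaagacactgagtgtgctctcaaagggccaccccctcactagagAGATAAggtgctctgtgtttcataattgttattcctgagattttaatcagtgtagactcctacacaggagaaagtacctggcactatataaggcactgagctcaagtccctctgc
Plet1 (chr9:50494275-50494524, plus strand): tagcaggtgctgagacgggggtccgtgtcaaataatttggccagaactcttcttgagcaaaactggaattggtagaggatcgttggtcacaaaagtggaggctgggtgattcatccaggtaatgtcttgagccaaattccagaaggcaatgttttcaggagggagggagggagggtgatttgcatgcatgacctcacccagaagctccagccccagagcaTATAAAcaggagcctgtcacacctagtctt
AGATAA stands at -115 to -110 from the *Defb6* start site, and TATAAA at -30 to -25 from that of *Plet1*. The SOX-type letters ACAAAG and ACAATG were in none of the 4 windows on either strand, and neither AGATAA nor TATAAA was in those of *Krt79* and *Lrig1*. Other forms of these motifs were not searched. Over all 32851 windows of the same length, searched on both strands, ACAAAG was found in 16.5%, ACAATG in 10.7%, AGATAA in 9.99% and TATAAA in 12.4%. These matches are letters in a window and say nothing of binding.

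Several facts of the libraries bear on the values. The MYC-SOX9 transgene had 89.6 and 45.6 TPM at D0 and between 606 and 3414 TPM after induction, with the highest levels at W1. TPM (transcripts per 1000000) are scaled for transcript length and have the same total in each library, so levels of different genes can be compared but the depth behind a value is unknown. D0 replicate 2 goes against its label of male: it had 4.61 TPM of *Xist* and 0.0279 TPM of the Y-linked *Ddx3y*, against 0.00103 and 32.1 TPM in D0 replicate 1. Both W12 libraries had *Xist* (3.50 and 5.51 TPM) beside *Ddx3y* (11.0 and 12.9 TPM), and endothelial markers summed to 28.9 and 66.8 TPM there, nearly all *Pecam1*, against at most 1.35 TPM at earlier timepoints. Immune markers summed to 102 and 125 TPM at W12, nearly all *Cd74*, against at most 27.1 TPM before. The other 5 listed immune genes were under 1 TPM in both W12 libraries, as they were before. The Merkel cell list summed to 79.5 and 251 TPM at W12 and to at most 9.64 TPM before, all of it but a trace *Krt8* and *Krt18*, while the defining *Atoh1* was at 0 and *Krt20* at most 0.544 TPM at W12. Of 7 basal epidermal genes, 6 were lower than D0 at W6 (14.1% of all genes tested were), and 4 were lower and 1 higher at W12 (25.1% and 17.9%). Of 9 genes of the differentiating epidermis, 4 were higher and 1 lower at W6 (18.3% and 14.1% of all genes) and 3 and 2 at W12 (17.9% and 25.1%), and their sum, mostly *Krtdap*, was 11968 to 13603 TPM at these timepoints against 6206 and 2140 TPM at D0. Of 9 bulge and outer root sheath genes tested, 2 were higher than D0 at W1 and 3 at W2 (5.79% and 9.06% of all genes). At W6, 3 were higher and 1 lower (18.3% and 14.1%), and at W12, 3 and 2 (17.9% and 25.1%). Immediate-early and stress genes summed to 31248 and 50521 TPM at D0 and to 5469 to 12877 TPM later. The part of these differences in the changes of the 6 genes was not tested.

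*Krt79*, *Cst6* and *Defb6* were higher than D0 at W2 and W6, had their highest mean at one of these timepoints and were called in neither direction in the W12 grafts. *Lrig1* and *Gata6* rose less, were highest at W2 and fell below D0 at W12. *Plet1* was the exception, with its highest mean at D0 and its lowest at W2. Changes were tested with limma on log2(TPM + 1), on which low genes show too small a change, and a gene was called at an adjusted P under 0.05. The test ran over 13110 genes whose mean reached 1 TPM, as all 6 genes did. P values rest on the spread between the 2 biological replicates per timepoint, pooled over all 5 timepoints and drawn toward that of other genes. The SE of a gene is therefore the same in each comparison. Against D0, 2 of the 6 genes were called at W1, both higher, where 9.89% of all genes tested were called (5.79% higher and 4.10% lower). At W2, 5 were called higher, against 15.7% called in all (9.06% higher and 6.64% lower). At W6, 3 were called higher, against 32.4% (18.3% higher and 14.1% lower). At W12, 2 were called lower, against 43.0% (17.9% higher and 25.1% lower). The 6 genes had a median log2 change of 1.10, 2.13, 1.69 and -0.24 in these 4 comparisons, in that order, beside 0.09, 0.06, 0.08 and -0.08 over all genes tested. Without D0 replicate 2, 1 was called higher at W1 (*Krt79*), 3 at W2 and 3 at W6 (*Krt79*, *Cst6* and *Defb6* in both), and 2 were lower at W12 (*Lrig1* and *Gata6*). Over all genes, the 4 comparisons then called 1031, 1424, 2356 and 3737, in that order, against 1296, 2058, 4251 and 5642 with all libraries. The count of the 6 genes at W1 was also 1 without either W1 replicate, where 609 and 377 of all genes were called. At W2 it was 3 without D0 replicate 1 or W2 replicate 1 and 2 without W2 replicate 2, in fits that called 2568, 782 and 652 of all genes. At W6, *Lrig1* and *Plet1* changed by -0.81 and -1.63 without W6 replicate 1, and by 0.87 and -0.19 without W6 replicate 2. At W12, 1 was lower without D0 replicate 1 or either W12 replicate (6168, 3362 and 3668 of all genes called).

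**Figure D1:**
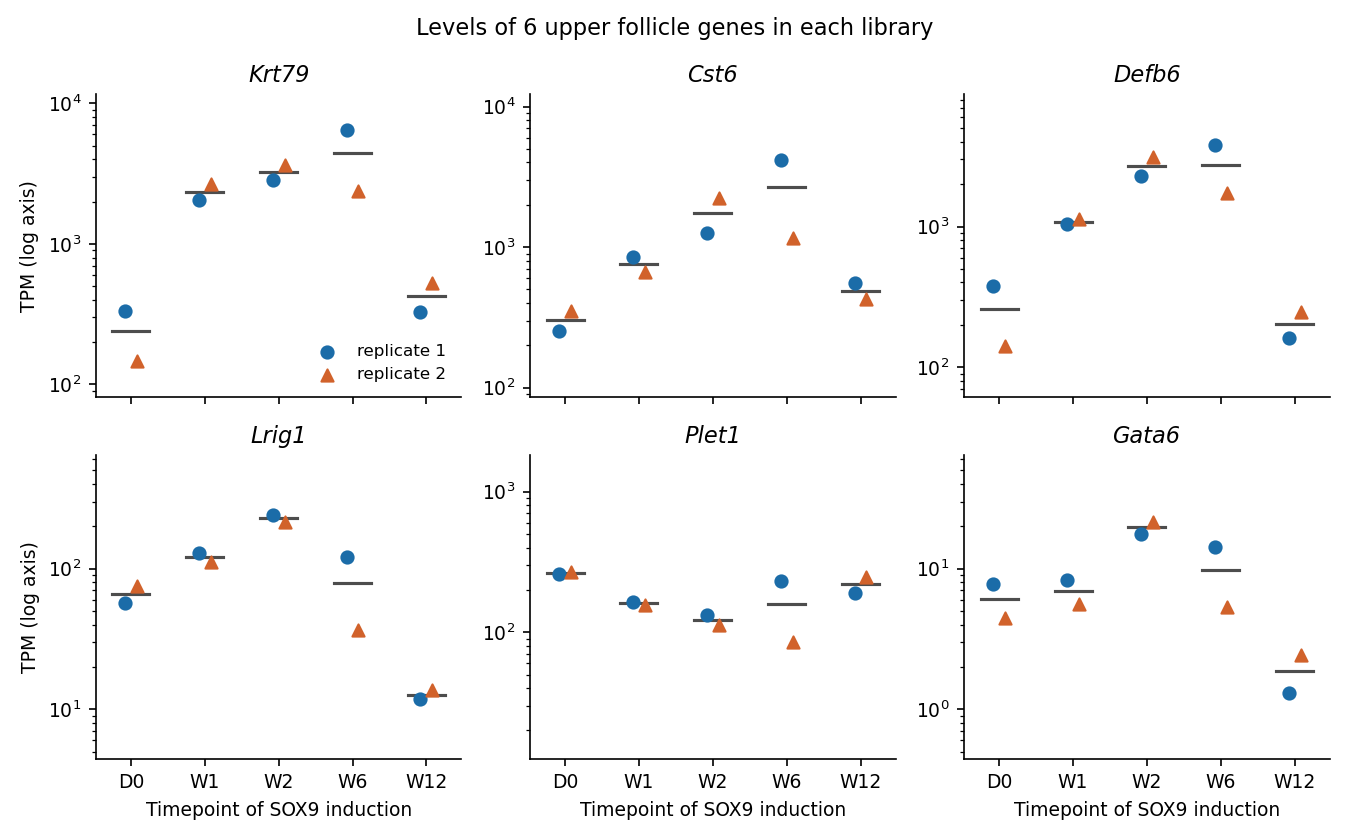
TPM (log axis) of each of the 6 genes in the 10 libraries by timepoint of SOX9 induction, with circles for replicate 1, triangles for replicate 2 and a bar at the mean of both. *Krt79*, *Cst6* and *Defb6* climb in mean from D0 to W6 and drop at W12, *Plet1* is lowest at W2 on average, and all 6 genes are higher in W6 replicate 1 than in W6 replicate 2.

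*Krt79* encodes a keratin of the upper follicle and sebaceous duct and had the largest rise. It had 330 and 147 TPM at D0, 2045 and 2648 at W1, 2838 and 3670 at W2, 6417 and 2375 at W6, and 327 and 528 at W12. Every library from W1 to W6 lay above every library of D0 and W12, and D0 and W12 overlapped. Its log2 change from D0 was 3.39 ± 0.50 (SE, n = 2 and 2, limma adjusted P = 0.00442) at W1. It was 3.87 ± 0.50 at W2 (limma adjusted P = 0.00175) and 4.14 ± 0.50 at W6 (limma adjusted P = 0.000702). At W12 the change was 0.91 ± 0.50 and was not called (limma adjusted P = 0.173). By mean TPM it rose from rank 621 of the table at D0 to 48 at W1, 29 at W2 and 12 at W6, and stood at 411 at W12. The order of means was W6, W2, W1, W12 and D0, but no difference among W1, W2 and W6 passed the test (limma adjusted P = 0.716 from W1 to W2, 0.73 from W2 to W6 and 0.304 from W1 to W6). Without D0 replicate 2 the W1 change was 2.81 (limma adjusted P = 0.0239). The W6 change was 3.42 without W6 replicate 1 and 4.86 without W6 replicate 2, called in both. In each fit that leaves out 1 library, the lone library of that timepoint is assumed to vary like those of the other timepoints.

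*Defb6* encodes a beta-defensin, a secreted antimicrobial peptide of epithelia. Its values were 376 and 141 TPM at D0, 1036 and 1132 at W1, 2285 and 3134 at W2, 3776 and 1745 at W6, and 160 and 247 at W12. Libraries of W1, W2 and W6 were all above those of D0 and W12, and those of D0 and W12 overlapped. The log2 change from D0 was 2.23 ± 0.48 at W1 (SE, limma adjusted P = 0.0224), 3.53 ± 0.48 at W2 (limma adjusted P = 0.00215) and 3.47 ± 0.48 at W6 (limma adjusted P = 0.00134). At W12 it was -0.21 ± 0.48 (limma adjusted P = 0.748). The W1 call was lost without D0 replicate 2, with a change of 1.52 (limma adjusted P = 0.0857), and without either W1 replicate (2.29 and 2.16, limma adjusted P = 0.0964 and 0.143). Without D0 replicate 2 the change was 2.83 at W2 and 2.77 at W6, and without D0 replicate 1 it was 2.93 at W1, 4.23 at W2 and 4.17 at W6, called in all 5. W2 and W6 overlapped, and their order by mean TPM (2709 and 2760) turned on the log scale.

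*Cst6* encodes cystatin M/E, a secreted inhibitor of cysteine proteases such as legumain and cathepsin L in the cornifying epithelium. It had 252 and 354 TPM at D0, 849 and 664 at W1, 1260 and 2222 at W2, 4161 and 1153 at W6, and 553 and 426 at W12. Its libraries stood in 5 steps that overlapped only between W2 and W6, with W12 above D0. The change at W1 was 1.33 ± 0.53 on the log2 scale and was not called (SE, limma adjusted P = 0.156), whereas it was called at W2, at 2.48 ± 0.53 (limma adjusted P = 0.0156), and at W6, at 2.87 ± 0.53 (limma adjusted P = 0.00477). At W12 it was 0.70 ± 0.53 (limma adjusted P = 0.312). Without D0 replicate 1 or W2 replicate 2 the W2 change was 2.24 and 2.07 and its call was lost (limma adjusted P = 0.0554 and 0.119). The W6 change was 1.95 without W6 replicate 1 and 3.80 without W6 replicate 2, called in both.

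*Lrig1* encodes a transmembrane protein that dampens signalling by ERBB receptors and marks stem cells of the junctional zone and upper follicle. Its values were 57.3 and 75.0 TPM at D0, 129 and 112 at W1, 242 and 215 at W2, 121 and 36.8 at W6, and 11.7 and 13.7 at W12. Both W2 libraries were the highest and both W12 libraries the lowest of all, while the W6 libraries lay on either side of D0. Its log2 change from D0 was 0.87 ± 0.44 at W1 (SE, limma adjusted P = 0.253), 1.78 ± 0.44 at W2 (limma adjusted P = 0.0278) and -2.28 ± 0.44 at W12 (limma adjusted P = 0.00383). From W2 to W6 it fell by 1.75 ± 0.44 (limma adjusted P = 0.0327). The W2 call was lost without any one of the D0 or W2 libraries, with changes of 1.59 and 1.97 without D0 replicate 1 or 2 and 1.70 and 1.87 without W2 replicate 1 or 2 (limma adjusted P = 0.0879, 0.0665, 0.134 and 0.117). The call from W2 to W6 was lost without W2 replicate 1 or 2, with changes of -1.67 and -1.84 (limma adjusted P = 0.167 and 0.125), and the change was -2.60 without W6 replicate 1 and -0.91 without W6 replicate 2.

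At W6 the log2 change of *Lrig1* from D0 was 0.03 ± 0.44 (SE, limma adjusted P = 0.967), and its sign turned under other scalings, to -0.12 with median-ratio scaling and -0.05 with quantile normalization. It was -0.81 without W6 replicate 1 (limma adjusted P = 0.0274) and 0.87 without W6 replicate 2 (limma adjusted P = 0.0223), fits in which W6 rests on 1 library and the spread comes from the other timepoints alone. No direction can be given for *Lrig1* at W6.

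*Gata6* encodes a zinc-finger transcription factor of the upper follicle and sebaceous duct and was the lowest of the 6 genes at every timepoint. The gene (ENSMUSG00000005836.10) spans chr18:11052064-11085635 on the plus strand. It had 7.72 and 4.47 TPM at D0, 8.25 and 5.57 at W1, 17.7 and 21.6 at W2, 14.2 and 5.35 at W6, and 1.31 and 2.41 at W12. The W2 libraries were above all others and the W12 libraries below all others, and D0, W1 and W6 overlapped. The log2 change was 1.57 ± 0.42 at W2 (SE, limma adjusted P = 0.0385) and -1.30 ± 0.42 at W12 (limma adjusted P = 0.0359). It was 0.18 ± 0.42 at W1 (limma adjusted P = 0.847) and 0.51 ± 0.42 at W6 (limma adjusted P = 0.382). The W2 change was not called under either other scaling (1.49 in each, limma adjusted P = 0.057 and 0.0577). Without D0 replicate 2, W2 replicate 1 or W2 replicate 2 the W2 change was 1.24, 1.71 and 1.43 and was not called. The W12 change was -0.96, -1.02 and -1.58 without D0 replicate 1, W12 replicate 1 or W12 replicate 2, and was not called.

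*Plet1* encodes a cell-surface protein, the MTS24 antigen, of the isthmus and upper follicle. It had 258 and 269 TPM at D0, 165 and 157 at W1, 132 and 112 at W2, 231 and 84.6 at W6, and 191 and 247 at W12. D0 lay above every library of the other timepoints, W1 above W2, and the W6 libraries spread from below W2 into the range of W12. The log2 change from D0 was -0.70 ± 0.38 at W1 (SE, limma adjusted P = 0.279), -1.11 ± 0.38 at W2 (limma adjusted P = 0.0824), -0.91 ± 0.38 at W6 (limma adjusted P = 0.0963) and -0.27 ± 0.38 at W12 (limma adjusted P = 0.584), none called. Without W6 replicate 1 the W6 change was -1.63 and was called (limma adjusted P = 0.00187), and without W6 replicate 2 it was -0.19 and was not (limma adjusted P = 0.489). In a fit of the 4 libraries of D0 and W2 alone the W2 change was called (limma adjusted P = 0.0278). *Plet1* was the only one of the 6 genes not called in the F test over the 4 contrasts with D0 (limma adjusted P = 0.12), in which 57.5% of all genes tested were called, and for the others the adjusted P values ran from 0.000752 to 0.00802.

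**Figure D2:**
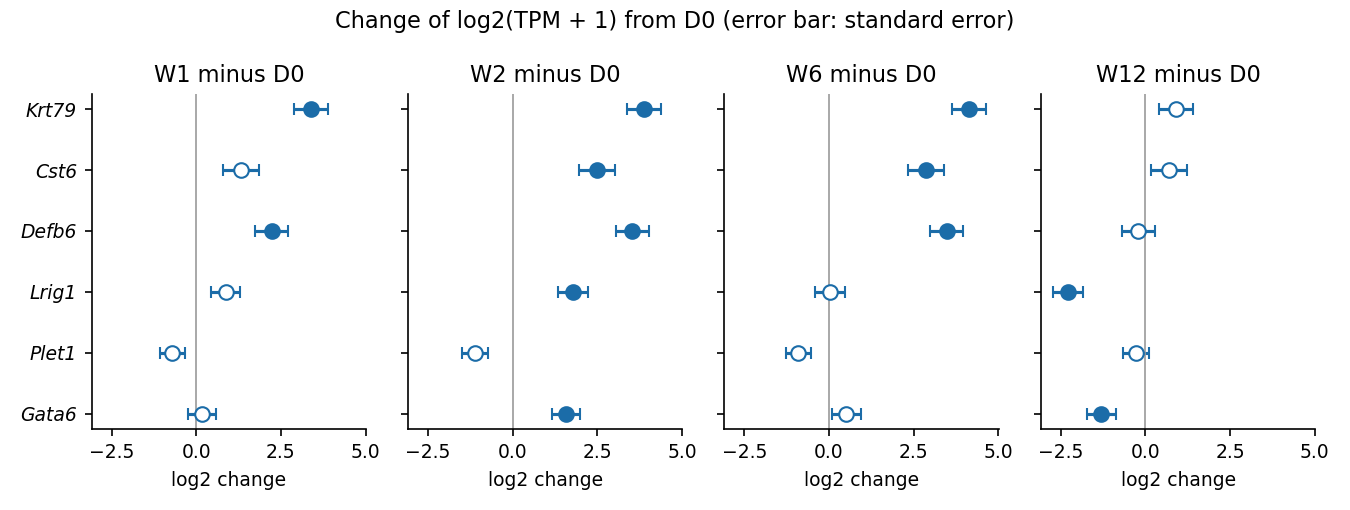
Log2 change of TPM + 1 from D0 for each gene at W1, W2, W6 and W12, as the limma estimate with its standard error (error bar). Filled points were called at an adjusted P under 0.05 and open points were not. *Krt79* and *Defb6* are right of 0 at W1, W2 and W6, and *Lrig1* and *Gata6* are left of 0 at W12.

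Between W6 and W12, 5 of the 6 genes fell, where 20.2% of all genes tested were called (6.66% higher and 13.5% lower). *Defb6* fell by 3.68 ± 0.48 on the log2 scale (SE, limma adjusted P = 0.00189) and *Krt79* fell by 3.23 ± 0.50 (limma adjusted P = 0.00422). *Lrig1* fell by 2.31 ± 0.44 (limma adjusted P = 0.00937), *Cst6* fell by 2.17 ± 0.53 (limma adjusted P = 0.0229) and *Gata6* fell by 1.81 ± 0.42 (limma adjusted P = 0.0201). *Plet1* had a change of 0.63 ± 0.38 (limma adjusted P = 0.274). All genes tested had a median change of -0.16. The calls of *Krt79* and *Defb6* held without any one W6 or W12 library, with *Krt79* at -2.51 without W6 replicate 1 and -3.95 without W6 replicate 2. The changes of *Cst6*, *Gata6* and *Lrig1* stayed negative without any one of these libraries, but the *Cst6* call was lost without W6 replicate 1 or either W12 replicate, that of *Gata6* without the same libraries and that of *Lrig1* without W12 replicate 1 (limma adjusted P from 0.0538 to 0.146 over these 7 fits). Without W12 replicate 1 the changes were -2.36 for *Cst6*, -1.53 for *Gata6* and -2.21 for *Lrig1*, and without W12 replicate 2 they were -1.98 for *Cst6* and -2.09 for *Gata6*. The *Cst6* call was also lost with median-ratio scaling (-2.02, limma adjusted P = 0.0521). Without W6 replicate 1 the changes were -1.47 for *Lrig1*, -1.25 for *Cst6* and -1.18 for *Gata6*, and without W6 replicate 2 they were -3.15, -3.10 and -2.44. From W2 to W12, also across the graft, 5 fell (*Plet1* being the exception again), against 42.9% of all genes called (15.7% higher and 27.2% lower), and the *Cst6* call was lost without W2 replicate 2 or either W12 replicate, with changes of -1.37, -1.97 and -1.60 (limma adjusted P = 0.146, 0.0767 and 0.127). From W1 to W12, 4 fell, against 44.4% called (15.7% higher and 28.7% lower), with *Cst6* at -0.63 (limma adjusted P = 0.361), and the *Gata6* call was lost without W1 replicate 1 or W12 replicate 1, with changes of -1.23 and -1.19 (limma adjusted P = 0.119 and 0.137). From W1 to W2 none of the 6 was called by limma, although 2 were higher at an unadjusted P under 0.05, in a comparison that called 0.114% of all genes (0.0458% higher and 0.0686% lower). From W1 to W6 none was called either, with 2 higher at an unadjusted P under 0.05, where 22.9% of all genes were (10.6% higher and 12.3% lower). From W2 to W6, 1 was called (*Lrig1*, lower), against 16.3% in all (7.99% higher and 8.31% lower).

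The replicates of W6 stood apart from each other for all 6 genes. The ratio of W6 replicate 1 to W6 replicate 2 was 2.70 for *Krt79*, 3.61 for *Cst6*, 2.16 for *Defb6*, 3.28 for *Lrig1*, 2.73 for *Plet1* and 2.66 for *Gata6*. All 6 genes were higher in replicate 1 by at least 1 on the log2 scale, a difference that 3.27% of all genes tested had in that direction. At no other timepoint were more than 2 of the 6 genes higher in replicate 1 by that much. Within a library the ratios between the genes held closer: *Krt79* over *Plet1* was 27.8 and 28.1 in the W6 replicates, and *Lrig1* over *Plet1* was 0.524 and 0.435. *Krt79* over *Krt5*, a keratin of the basal layer, was 0.682 and 0.289. Of 7 other upper follicle genes, described below, *Fst* (173 against 461 TPM) and *Sostdc1* (615 against 1026 TPM) were lower in replicate 1 than in replicate 2. The rest were higher there: *Krt17* (11555.5 against 6011), *Atp6v1c2* (81.5 against 29.6), *Klk10* (171 against 86.9), *Teddm3* (94.2 against 66.0) and *Lgr6* (66.8 against 30.0). W6 replicate 2 also held fibroblast markers at a sum of 52.2 TPM, nearly all *Dcn*, against 1.68 TPM in replicate 1, and the 10 bulge and outer root sheath genes summed to 1949 against 792 TPM. Most of the latter difference was *Krt15* (1350 against 429 TPM) and *Postn* (528 against 261 TPM), whereas *Nfatc1* (27.7 against 46.6), *Foxc1* (19.1 against 34.4) and *Tcf7l1* (2.90 against 8.71) were lower in replicate 2. The bulge markers *Lgr5* (5.80 against 0.769 TPM) and *Cd34* (5.04 against 2.66 TPM) were also higher in replicate 2, as were *Tbx1* (8.11 against 6.09 TPM) and *Fgf18* (0.466 against 0.296 TPM), and *Lhx2* was at 1.55 against 1.70 TPM. Their part in the split was not tested.

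**Figure D3:**
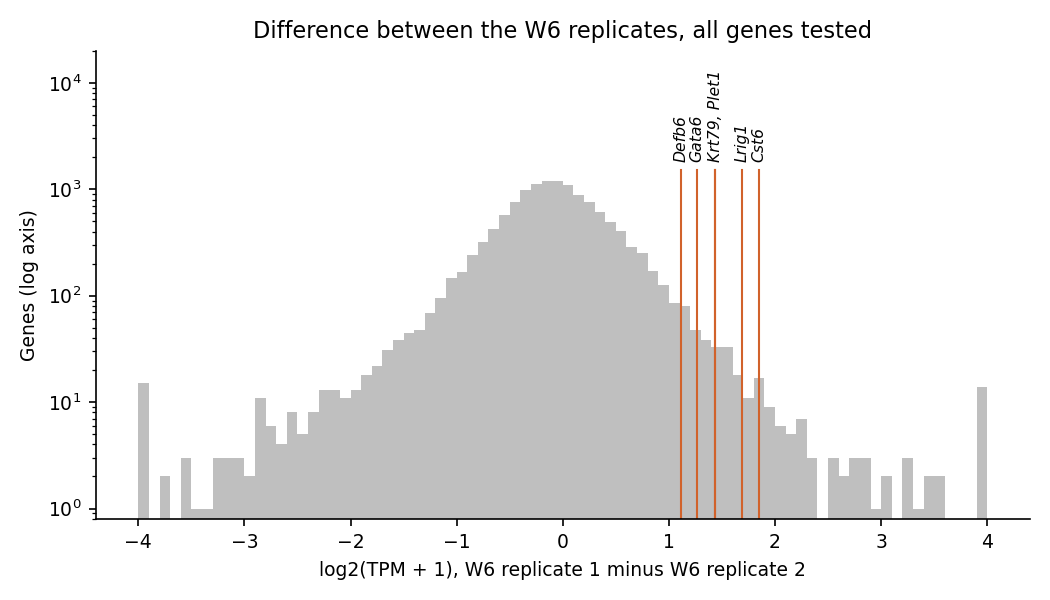
Difference in log2(TPM + 1) between W6 replicate 1 and W6 replicate 2 for all genes tested, counted in bins (gene number on a log axis), with orange lines at the 6 genes. The outermost bars also hold genes with differences beyond them. All 6 lines lie between 1.11 and 1.85, to the right of most genes.

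Ratios between the genes within a library also varied with time. *Krt79* over *Plet1* was 1.28 and 0.547 at D0, 12.4 and 16.8 at W1, 21.5 and 32.7 at W2, 27.8 and 28.1 at W6, and 1.71 and 2.14 at W12, so that W2 and W6 overlapped. *Lrig1* over *Plet1* was 0.222 and 0.279 at D0, 0.783 and 0.713 at W1, 1.84 and 1.91 at W2, 0.524 and 0.435 at W6, and 0.0613 and 0.0554 at W12, with no overlap between timepoints. The 6 genes together summed to 1281 and 990 TPM at D0, 4232 and 4720 at W1, 6774 and 9375 at W2, 14719 and 5400 at W6, and 1245 and 1463 at W12. Most of this sum was *Krt79*, *Cst6* and *Defb6* from W1 to W6.

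A further 7 genes of the upper follicle (*Krt17*, *Atp6v1c2*, *Klk10*, *Teddm3*, *Fst*, *Lgr6* and *Sostdc1*), listed with earlier results of these data known, were all tested. Against D0, 3 were higher at W1 and 5 at W2, 6 were higher at W6, and at W12 5 were higher and 1 lower, beside 5.79%, 9.06%, 18.3% and 17.9% of all genes higher and 25.1% lower at W12. Their median log2 change was 1.37, 1.85, 2.33 and 1.60 in the same order. *Sostdc1*, a secreted BMP and WNT antagonist, had 316 and 154 TPM at D0, 1410 and 1456 at W1, 1692 and 1205 at W2, 615 and 1026 at W6, and 196 and 226 at W12, low again in the grafts as *Krt79* was. *Lgr6*, a receptor of R-spondins and a marker of isthmus stem cells, was called against D0 at W12 alone (log2 change -1.70, limma adjusted P = 0.013). *Teddm3* had 2.31 and 0.68 TPM at D0 and stayed high in the grafts, at 77.9 and 85.9 TPM (log2 change 5.13 at W12, limma adjusted P = 5.86e-05). *Klk10* (2.61), *Fst* (1.80), *Krt17* (1.60) and *Atp6v1c2* (1.20) were also higher at W12 than at D0. From W6 to W12, 4 of the 7 fell (*Krt17*, *Atp6v1c2*, *Lgr6* and *Sostdc1*) and none rose, beside 13.5% and 6.66% of all genes.

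**Figure D4:**
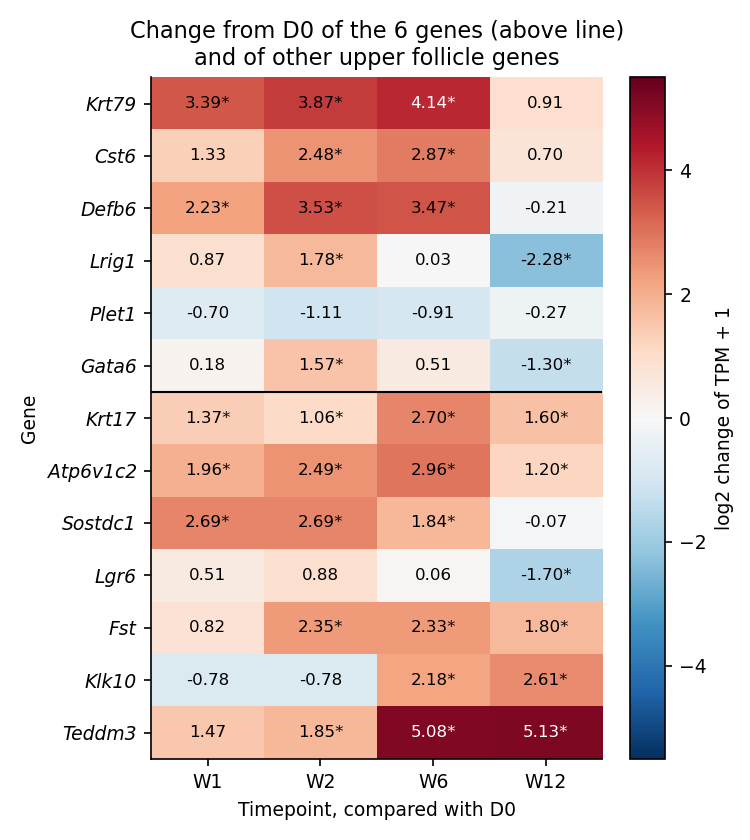
Log2 change of TPM + 1 from D0 at W1, W2, W6 and W12 for the 6 genes (above the line) and 7 other upper follicle genes, with the colour scale in log2 units and an asterisk for an adjusted P under 0.05. *Teddm3* stays above 5 at W12, whereas *Krt79*, *Cst6* and *Defb6* are near or below 1 there.

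Genes of the same families and pathways were compared next. Of 8 listed relatives and receptors of LRIG1, 6 passed the filter and *Erbb4* and *Ret* did not. None was called at W1 (4.10% of all genes tested were lower at W1, 6.64% at W2 and 14.1% at W6), *Met* was lower at W2 (-1.29, limma adjusted P = 0.00491), *Egfr* and *Met* were lower at W6 (-1.32 and -1.97, limma adjusted P = 0.00172 and 0.000425), and all 6 were lower at W12, with a median log2 change of -1.36, where 25.1% of all genes tested were lower. From W2 to W6, where *Lrig1* fell, *Erbb3* (-1.71), *Lrig3* (-0.76) and *Egfr* (-0.67) were lower too (limma adjusted P = 0.0174, 0.0489 and 0.0494), where 8.31% of all genes tested were lower. *Erbb2* had 58.6 and 102 TPM at D0 and 12.6 and 17.0 TPM at W12, and the relative *Lrig3* 32.2 and 52.9 against 9.77 and 11.7 TPM. Of 5 other GATA factors only *Gata3*, a regulator of epidermal and inner root sheath differentiation, passed the filter. It had 241 and 346 TPM at D0 and 27.2 and 27.8 TPM at W12, and its log2 change was -1.03 at W2, -2.01 at W6 and -3.35 at W12 (limma adjusted P = 0.0468, 0.00167 and 8.24e-05), so that *Gata3* was lower at W2, where *Gata6* was higher.

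Of 5 listed antimicrobial peptides, *Defb3*, *Defb4* and *Camp* were near 0 and did not pass the filter. *Defb14* had 1.83 and 0.84 TPM at D0, 13.6 and 10.1 at W6, and 169 and 158 at W12, where *Defb6* had its lowest mean. Its log2 change from D0 was 6.17 at W12 (limma adjusted P = 6.22e-06). *Defb1* was called against D0 at W2 alone (1.05, limma adjusted P = 0.0233), when *Defb6* was higher as well. Of the 7 genes of the cystatin pathway, all tested, none was called at W1 or W2, where 9.89% and 15.7% of all genes were. At W6, where 32.4% of all genes were called, *Tgm1*, *Cstb* and *Ctsb* were higher (2.35, 1.01 and 0.42) and *Cst3* was lower (-0.65). At W12, where 43.0% of all genes were called, *Lgmn*, *Ctsl*, *Tgm1* and *Cstb* were higher (0.97, 1.16, 2.74 and 1.32). *Lgmn* and *Ctsl* encode legumain and cathepsin L, and *Cst6* was not called there.

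Markers of the neighbouring sebaceous gland were measured because the genes overlap its duct. Of 12 listed, 7 passed the filter, and the defining genes *Awat2* and *Mc5r* stayed under 1 TPM in every library. *Pparg* and *Elovl3* reached at most 1.11 and 1.95 TPM. *Mgst1* was at 44.2 and 28.3 TPM at D0 and 338 and 344 TPM at W2. The list summed to 149 and 169 TPM at D0 and to 479 and 463 TPM at W2, a difference that was mostly *Mgst1*. Of the 7 genes tested, 2 were higher and 1 lower at W1, where 9.89% of all genes were called, and 1 and 1 at W2 (15.7%). At W6, 4 were higher and 1 lower (32.4% of all genes called), and at W12, 4 and 2 (43.0%).

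The genes with the most similar pattern over the 10 libraries, by Pearson r of log2(TPM + 1), were *Itpripl1* (0.989), *Acot1* (0.977) and *Thoc3* (0.976) for *Krt79*, and *Papss1* (0.987), *Samm50* (0.981) and *Cldn8* (0.98) for *Defb6*. For *Cst6* they were *Flg* (0.963), *Slc12a2* (0.957) and *Smyd3* (0.955), and for *Lrig1* *Zfp212* (0.991), *Dag1* (0.989) and *Gm10524* (0.988). For *Gata6* they were *Gm48274* (0.968), *Cln6* (0.966) and *H1f10* (0.962), and for *Plet1* *Nepro* (0.889), *Trpv3* (0.881) and *Ovol1* (0.876). The libraries share their timepoints, so these values describe likeness over 5 pairs. *Flg*, which encodes filaggrin, had a mean of 1.85 TPM at D0, 25.9 TPM at W6 and 2.10 TPM at W12.

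Some values could share reads with other genes. Of the 31-base words in the transcripts of *Plet1*, 13.6% also occur in another gene, spread over 2762 other genes. *Plet1os*, an antisense gene listed at no more than 0.579 TPM, shares the most, and the levels of the others were not examined. For *Lrig1* the share was 2.03%, with *Slc25a26* on the other strand (5.59 to 8.90 TPM), and for *Gata6* 1.02%. It was 0.712% for *Cst6* (over 360 other genes), 0.252% for *Krt79* and 0% for *Defb6*. Whether the quantification used strand is not given in the sources used here.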

How the data were processed

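RNA was measured by RNA-seq in 10 time-course libraries of FACS-sorted EpdSCs, grouped by the sample labels. The authors deposited TPM per gene, made with the SMARTer low-input kit, Skewer, Salmon (1.4.0) on a GENCODE index of GRCm38 with the transgene added, and Tximport (1.12.3). TPM hold no depth, so no counting error is given. The 4 placode libraries entered no comparison, because their deposited table holds only the authors' own test results (fold changes and P values).

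limma 3.58.1 in R 4.3.3 fitted the 5 timepoint means to log2(TPM + 1) over all 10 libraries (eBayes with trend, Benjamini-Hochberg over 13110 genes whose mean reached 1 TPM, adjusted P under 0.05), in place of the study's count test. The step was tested on simulated data. Genes named are the 6 genes, their 3 most alike genes each, called genes of marker and family lists, and checks of the labels. Other list genes (*Awat2*, *Mc5r*, *Pparg*, *Elovl3*, *Erbb4*, *Ret*, *Defb3*, *Defb4*, *Camp*, *Atoh1*, *Krt20*, *Postn*, *Dcn*, *Lhx2*, *Fgf18*) were named after their values were seen, and *Plet1os* and *Slc25a26* because they overlap 2 of the 6 genes. The 6 genes and the lists were chosen with earlier results of these data known. A further listed gene is not reported here. Same-numbered replicates are different mice. Alternatives were another pseudocount (0.1), other filters (above 0, at least 5 TPM), median-ratio and quantile scaling, no trend, only the libraries compared, a replicate block and each replicate left out. Python 3.11.15, numpy 2.4.6, pandas 2.3.3 and matplotlib 3.10.9 did the rest.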

Additional observations from a re-analysis of the deposited data

How the results depend on the processing

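Of 738 values of the 6 genes under the alternatives, 659 kept direction and call, 48 lost and 11 gained a call, and 20 changed sign. With all genes above 0 TPM, the genes called higher were 1 at W1 and 2 at W2, and the genes called lower 1 at W12, 0 from W2 to W6 and 3 from W6 to W12. With only the 4 libraries compared, 1 was higher at W1, 1 lower at W2, 0 lower from W2 to W6, 2 lower from W6 to W12 and 1 higher from W2 to W12. In both settings the log2 changes of the 6 genes were those of the main fit, and only the P values moved. Leaving out 1 library in turn gave 1 to 2 higher at W1, 2 to 3 higher at W2, 0 to 2 lower at W6, 1 to 2 lower at W12, 0 to 1 higher and 0 to 2 lower from W2 to W6, 0 to 1 higher and 2 to 5 lower from W6 to W12, and 0 to 1 higher and 0 to 2 lower from W1 to W6. Over all genes the same fits called 377 to 1773 at W1, 652 to 2568 at W2, 2356 to 5047 at W6, 3362 to 6168 at W12, 207 to 2626 from W2 to W6, 761 to 2846 from W6 to W12 and 856 to 3113 from W1 to W6. The cause was not tested.

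*Lrig1* at W6 was -0.12 with median-ratio scaling, -0.0497 with quantile normalization and -0.81 to 0.87 with 1 library left out, and from W1 to W6 it was -1.68 to 0.00574. *Gata6* with 1 library left out was -0.16 to 0.51 at W1, -0.12 to 1.14 at W6 and -0.30 to 0.96 from W1 to W6. *Defb6* was -0.92 to 0.49 at W12, and from W2 to W6 it was 0.0333 with quantile normalization and -0.62 to 0.50 with 1 library left out. From W2 to W6 *Cst6* was -0.54 to 1.31, *Krt79* -0.44 to 0.99 and *Plet1* -0.52 to 0.92. *Plet1* was -0.0843 to 1.35 from W6 to W12 and -0.92 to 0.52 from W1 to W6.

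Median-ratio scaling moved the median change of all genes from -0.16 to -0.02 between W6 and W12, from 0.08 to -0.05 at W6, from 0.09 to -0.01 at W1 and from -0.15 to -0.04 between W1 and W12. The share of called genes that were higher was 58.6% at W1, 57.7% at W2, 56.5% at W6 and 33.0% from W6 to W12, and 44.8%, 45.7%, 45.2% and 55.8% with that scaling. The genes called in the fit were 1296 at W1 and 2058 at W2 (606 and 1011 with all genes above 0 TPM, 411 and 1086 with only the 4 libraries), 4251 at W6 and 2642 from W6 to W12 (1094 and 887 with only the 4 libraries), and 2137 from W2 to W6 and 3003 from W1 to W6 (940 and 1829 with all genes above 0 TPM, 966 and 1718 with only the 4 libraries). From W1 to W2, 15 were called, 80 with only the 4 libraries and 7 with a pseudocount of 0.1.

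Replicates of one number deviated together with a correlation of -0.129 to 0.182, highest from W1 to W2. Whether a number stands for a shared handling batch was not tested. The replicate block gave 1057 genes called at W1, 1709 at W2, 3761 at W6, 5259 at W12, 6 from W1 to W2, 1396 from W2 to W6 and 2163 from W6 to W12, and left the numbers of the 6 genes called at 2, 5, 3 and 2 against D0. Crossed numbers, added after seeing the data, gave 1225 at W1, 4291 at W6 and 2666 from W6 to W12. TPM hold no depth, so what depth limits cannot be given.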
